A study of Mus musculus with 6 samples.

Results

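The genes described here are 37 genes of macrophages and inflammation, read from RNA sequencing of epididymal white adipose tissue, the fat pad beside the epididymis of the male mouse. They were chosen by gene symbol from a list, and all 37 symbols were found among the 28529 genes of the count table. By role, 21 of them are macrophage markers, 11 are cytokines and chemokines, and 5 are sensing and effector genes. The study compared 3 wild-type with 3 Maf1-/- male mice, 1 library per mouse. All 6 mice were of the C57BL/6 strain by their strain label (C57Bl6/J in the husbandry notes for wild-type mice), 22 to 24 weeks old, fed a breeder chow diet and fasted overnight before the tissue was taken. The Maf1-/- mice are whole-body knockouts, so the gene was targeted in adipocytes, macrophages and every other cell of the fat pad. RNA came from the whole pad, so fewer cells of a type and less RNA per cell cannot be told apart.

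Macrophages of adipose tissue clear dying adipocytes, debris and lipid, and in lean animals most of them are resident cells rich in scavenger receptors, the mannose receptor and complement C1q. In obesity more monocytes enter through the chemokine Ccl2 and its receptor Ccr2, and the tissue makes more of the inflammatory cytokines Tnf, Il1b and Il6. Many of these cytokine and chemokine genes are switched on by Toll-like receptors through the transcription factor NF-kB, whereas many marker genes depend on the myeloid ETS factor PU.1.

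The targeted gene was low in every mouse labelled Maf1-/-. Maf1, the repressor of RNA polymerase III (mm9 chr15:76181724-76184810), stood at 56.9, 66.9 and 66.5 CPM (reads of the gene scaled to a common library size, with TMM factors) in the wild-type mice and at 13.6, 11.6 and 22.2 CPM in the Maf1-/- mice, and where along the gene the reads of the latter lie was not analysed. The log2 fold change was −2.0 (SE 0.28), with an unadjusted p = 0.000225 and an adjusted p = 1.00 over all genes in the edgeR quasi-likelihood test. That p was the smallest of the 16101 genes tested, and none of them passed an adjusted p of 0.05 (0%), with 302 genes (1.88%) at an unadjusted p under 0.05. DESeq2 called 14 genes, Maf1 among them, and the exact test of edgeR called 4, also with Maf1. The libraries held between 7207476 and 15971900 counts, and Maf1-/- mouse 2 was the shallowest. The adipocyte gene Adipoq was at 2431 to 4544 CPM, so every library held fat tissue, but not fat tissue alone. Markers of other tissues differed between libraries. The summed level of 6 smooth muscle genes was 454 to 651 CPM in the wild-type mice but 2205, 4847 and 482 CPM in the Maf1-/- mice. That of 17 epididymis and testis genes was 17.8, 6842 and 3954 CPM in the wild-type and 799, 5730 and 8121 CPM in the Maf1-/- mice. It was lowest in mouse 1 of each genotype. The part of these other tissues in the results below was not tested, except where a value is given.

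The promoters of 25 of the 37 genes could be matched to RefSeq windows of 300 bases (250 before and 50 after the transcription start, GRCm38.p6). The stretches printed here run from 150 bases before the start to 10 bases into the transcript, and each was found once, without mismatch, in mm9, from which the coordinates come. They are shown for 3 abundant genes, Lyz2, C1qb and Ccl6, and for 3 scarce inducible genes, Tnf, Cxcl1 and Il6, since the results set these kinds of genes side by side. Capitals mark the motif letters that were found. In Lyz2, C1qb and Ccl6 these are AGGAAGT, the core bound by ETS factors such as PU.1, in its reverse complement.
Lyz2 (chr10:116719319-116719478, minus strand): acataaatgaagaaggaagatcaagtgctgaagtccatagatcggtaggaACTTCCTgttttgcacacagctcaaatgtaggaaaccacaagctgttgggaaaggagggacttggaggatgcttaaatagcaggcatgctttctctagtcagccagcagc
C1qb (chr4:136442106-136442265, minus strand): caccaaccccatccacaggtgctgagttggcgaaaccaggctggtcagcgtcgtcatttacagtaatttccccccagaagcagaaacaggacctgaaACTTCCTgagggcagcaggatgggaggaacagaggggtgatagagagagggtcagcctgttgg
Ccl6 (chr11:83406580-83406739, minus strand): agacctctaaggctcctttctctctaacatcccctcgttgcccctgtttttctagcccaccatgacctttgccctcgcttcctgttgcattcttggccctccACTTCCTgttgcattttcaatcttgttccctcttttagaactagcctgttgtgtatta
In Tnf they are the same ETS core and the TATA box TATAAA, in Cxcl1 the NF-kB consensus, which matches on both strands with a shift of 1 base, and in Il6 TTGCNNAA, the core bound by C/EBP factors, in its reverse complement, followed by the NF-kB consensus.
Tnf (chr17:35338943-35339102, minus strand): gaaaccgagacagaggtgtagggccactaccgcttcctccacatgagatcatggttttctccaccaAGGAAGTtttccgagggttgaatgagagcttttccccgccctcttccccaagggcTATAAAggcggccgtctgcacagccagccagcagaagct
Cxcl1 (chr5:91320121-91320280, plus strand): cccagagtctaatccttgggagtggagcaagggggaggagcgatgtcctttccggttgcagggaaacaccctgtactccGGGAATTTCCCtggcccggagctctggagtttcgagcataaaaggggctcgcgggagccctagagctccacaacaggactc
Il6 (chr5:30339504-30339663, plus strand): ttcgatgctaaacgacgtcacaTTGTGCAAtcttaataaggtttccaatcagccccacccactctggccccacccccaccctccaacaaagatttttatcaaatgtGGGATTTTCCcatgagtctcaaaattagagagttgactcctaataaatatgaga
Both strands of all 32851 windows of this length were searched. The ETS core was in 5 of 14 matched macrophage markers (C1qb, C1qc, Fcgr1, Lyz2 and Mrc1), 2 of 9 cytokines and chemokines (Ccl6 and Tnf) and 9.35% of all windows. The NF-kB consensus was in 2 of 14 markers (C1qc and Fcgr3), 4 of 9 cytokines and chemokines (Ccl9, Cxcl1, Cxcl10 and Il6) and 8.46% of all windows. The TATAAA letters of the TATA box were in 0 of 14 markers, 4 of 9 cytokines and chemokines (Ccl8, Ccl9, Il1b and Tnf) and 13.6% of all windows. Counted from the transcription start, they began at −32 in Ccl8, −31 in Il1b and −29 in Tnf. In Ccl9 they began at −224, −94 and −92. The C/EBP core was in 2 of 14 markers (Cd68 and Fcgr3), in Il6 alone of the 9 cytokines and chemokines, and in 10.8% of all windows. The other matched genes were Nfkbia and Retnla. Nfkbia had the NF-kB consensus, and the TATAAA letters only after the start, at 19. Retnla had the ETS core, the TATAAA letters at −30 and the C/EBP core. These matches describe the letters only and were not tested.

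The 37 genes spanned more than 3 orders of magnitude in level. Per kb of exon, Retnla was highest, with a mean of 447 CPM per kb over the 6 mice, followed by Lyz2 with 388, C1qa with 186 and Ccl6 with 134 CPM per kb. The lowest were Il6 with 0.264 and Il10 with 0.146 CPM per kb. The median level was 28.8 CPM per kb over the macrophage markers and 0.490 CPM per kb over the cytokines and chemokines, beside 5.85 CPM per kb over all genes tested. The cytokines and chemokines fell apart into 3 abundant genes, Ccl6, Ccl8 and Ccl9, at 133.6, 36.3 and 35.1 CPM per kb, and 8 scarce ones, none of which exceeded the 4.49 CPM per kb of Ccl2.

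**Figure D1:**
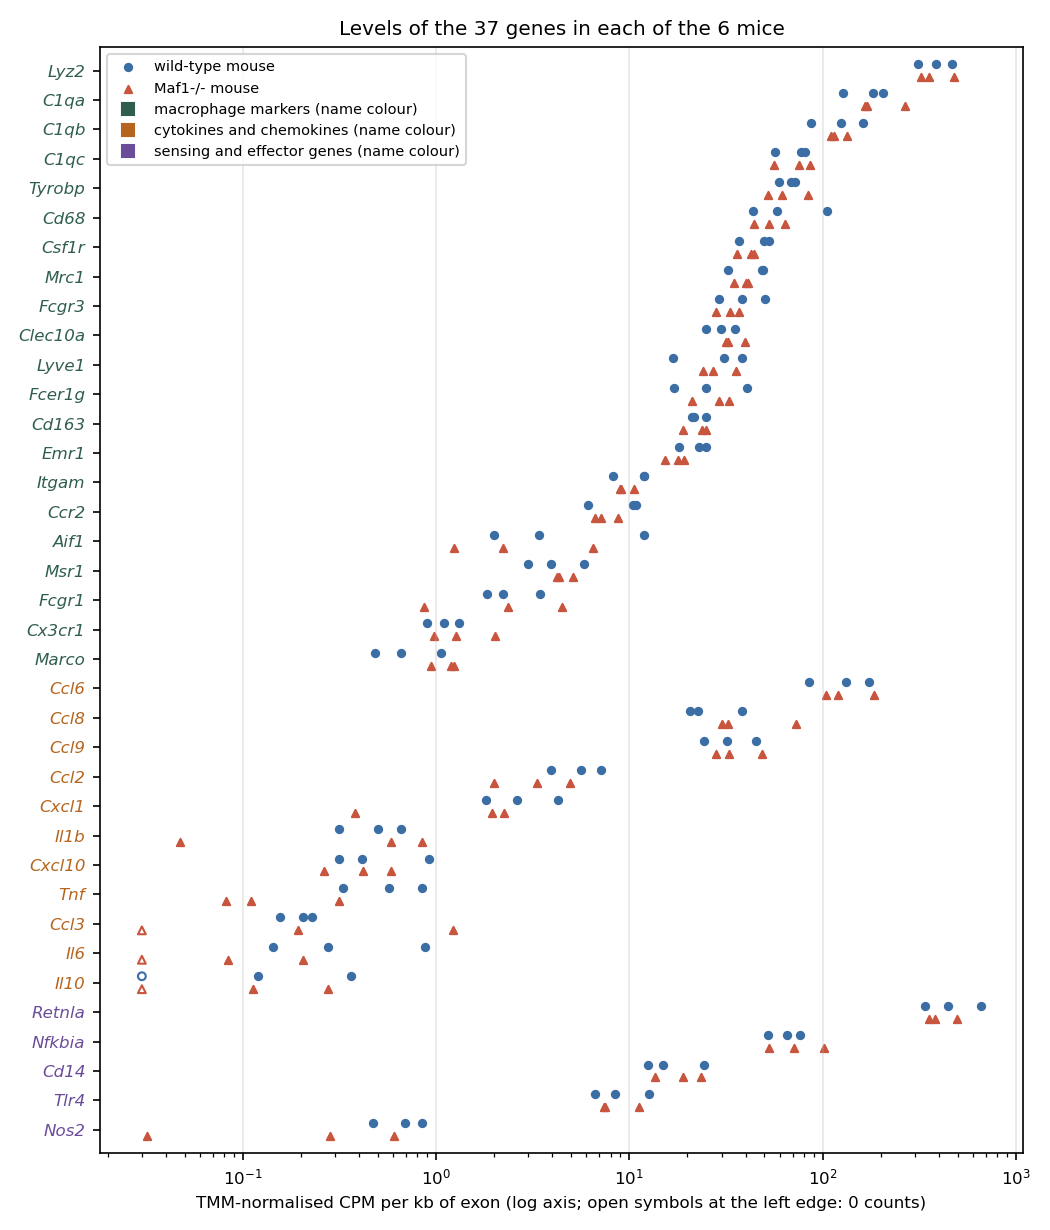
TMM-normalised CPM per kb of exon (log axis) of the 37 genes in each mouse, circles for the 3 wild-type and triangles for the 3 Maf1-/- mice, with name colours for the 3 classes and open symbols for 0 counts. Tnf is the only gene whose circles and triangles do not overlap.

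No macrophage or inflammation gene passed the edgeR quasi-likelihood test between the genotypes. After the filter on low counts 32 of the 37 genes were tested, and Ccl3, Cxcl10, Tnf, Il6 and Il10 were too scarce. Of the 32, 0 passed an adjusted p of 0.05 and 0 had an unadjusted p under 0.05, beside 0% and 1.88% of all genes tested. DESeq2, the exact test and limma voom also called 0 of them. The smallest unadjusted p was 0.121, for Emr1. The log2 fold change was above 0 for 15 and below 0 for 17 of them, and below 0 for 48.9% of all genes. It was larger than 0.5 in size for 6 of the 32, beside 20.7% of all genes tested. In none of the 32 were the genotypes free of overlap, against 3.37% of all genes tested with every Maf1-/- mouse lower and 2.9% with every Maf1-/- mouse higher. The 95% confidence interval stayed within a 2-fold change in either direction for 22 of the 32, beside 47.5% of all genes tested. A larger change of these 22 was thus outside the interval. Changes inside the interval of a gene could not be told from 0.

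**Figure D2:**
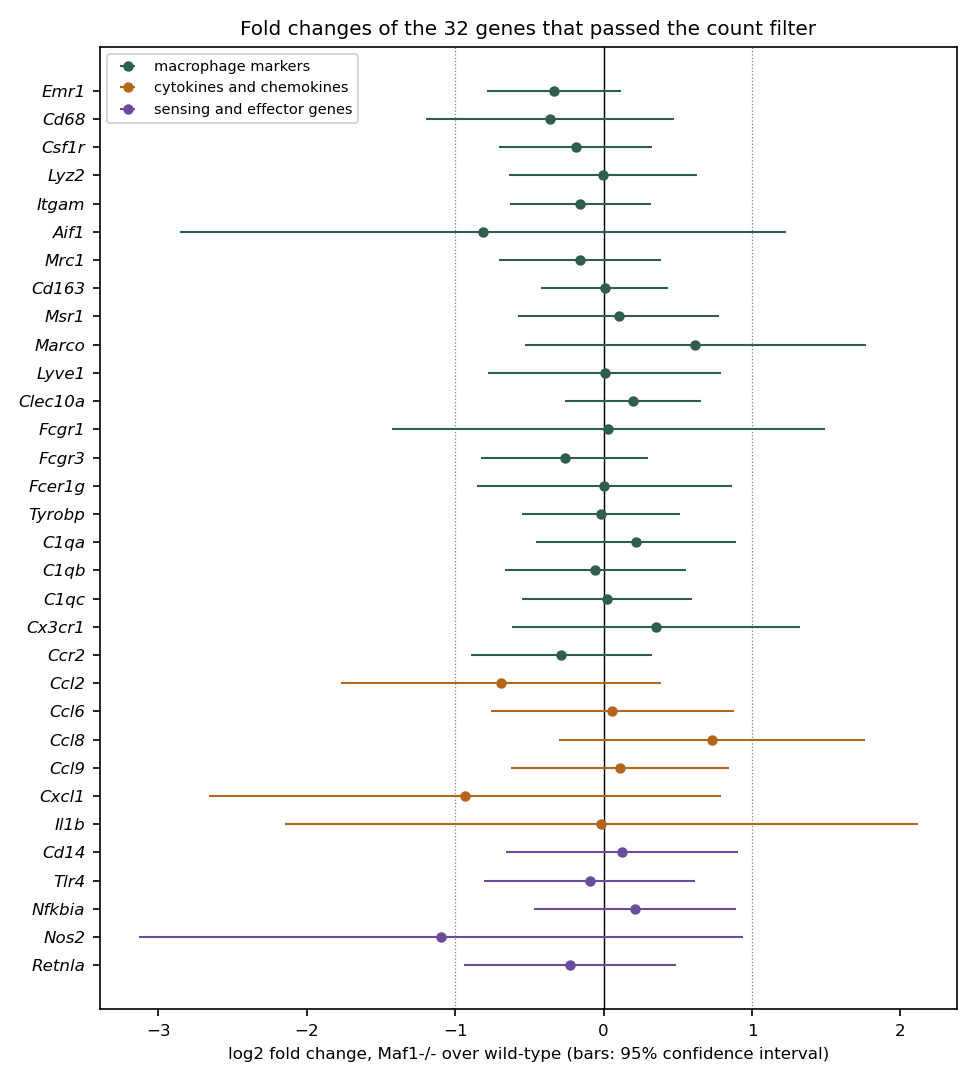
Log2 fold change of Maf1-/- over wild-type mice with its 95% confidence interval for the 32 tested genes, n = 3 mice per genotype, coloured by class, with dotted lines at a 2-fold change. Every interval crosses 0, and the widest belong to the scarce genes Il1b and Nos2 and to Aif1, whose libraries were uneven.

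The 6 lineage and identity genes all had a log2 fold change below 0, from −0.81 for Aif1 to −0.01 for Lyz2. Lyz2, which encodes the macrophage lysozyme, was the most abundant, at 615, 408 and 506 CPM in the wild-type mice and 470, 632 and 423 CPM in the Maf1-/- mice. The genotypes overlapped almost completely, with a log2 fold change of −0.01 (SE 0.27, 95% interval −0.64 to 0.63). Its paralog Lyz1, whose near-identical sequence can share or lose reads in counting, was at 96.7, 40.0 and 54.9 CPM in the wild-type and 46.5, 44.7 and 52.4 CPM in the Maf1-/- mice. Emr1, the adhesion receptor used to define mouse macrophages, was at 74.9, 58.5 and 81.2 CPM in the wild-type mice and 62.3, 49.7 and 58.1 CPM in the Maf1-/- mice. Only Maf1-/- mouse 1 lay above the lowest wild-type mouse, and the log2 fold change was −0.33 (SE 0.19, unadjusted p = 0.121, adjusted p = 1.00 by edgeR). Csf1r, the receptor for the growth factor that keeps macrophages alive, had a log2 fold change of −0.19 (SE 0.21), Itgam, an integrin of myeloid cells, of −0.16 (SE 0.20), and Cd68, a lysosomal glycoprotein, of −0.36 (SE 0.35), none of them past the test.

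Aif1, a calcium-binding protein of macrophages, had the largest log2 fold change among the markers and the least even libraries. It stood at 3.04, 18.2 and 5.23 CPM in the wild-type mice and at 1.90, 9.91 and 3.40 CPM in the Maf1-/- mice. Mouse 2 of each genotype was high, and the log2 fold change was −0.81 (SE 0.85), turning to 0.28 without wild-type mouse 2 but −0.61 without mouse 2 of both genotypes. The libraries did not follow those of the other identity genes: wild-type mouse 2 was the highest in Aif1 and the lowest in Cd68, Lyz2 and Itgam. The summed level of 4 spermatid genes (Prm1, Prm2, Tnp1 and Tnp2) was 0.956, 591 and 53.4 CPM in the wild-type and 0.453, 96.8 and 43.9 CPM in the Maf1-/- mice, highest in mouse 2 of each genotype as Aif1 was. Its part in the Aif1 values was not tested.

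Among the scavenger and lectin receptors of resident macrophages, 5 of 6 had a log2 fold change above 0 and none passed. Mrc1, the mannose receptor, was at 291, 193 and 289 CPM in the wild-type mice and 246, 206 and 240 CPM in the Maf1-/- mice. All 3 Maf1-/- mice lay between the lowest and the highest wild-type mouse, with a log2 fold change of −0.16 (SE 0.23). Marco, a scavenger receptor of bacteria and particles, had the largest change of this role but few reads, at 1.30, 0.955 and 2.11 CPM against 1.87 to 2.44 CPM in the Maf1-/- mice. Its log2 fold change was 0.62 (SE 0.48, 95% interval −0.53 to 1.77), so a change in either direction was within the error. Cd163, the haemoglobin scavenger receptor, was the steadiest marker: it lay at 94.8, 96.7 and 113 CPM in the wild-type and at 107, 85.4 and 113 CPM in the Maf1-/- mice, and its log2 fold change was 0.01 (SE 0.18, 95% interval −0.42 to 0.44). Lyve1, a hyaluronan receptor shared with lymphatic endothelium, had a log2 fold change of 0.01 (SE 0.33), Msr1, the class A scavenger receptor, of 0.10 (SE 0.28) and Clec10a, a galactose-binding lectin, of 0.20 (SE 0.19).

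The Fc receptors and their adaptors, which bind antibody and signal for uptake, lay close to 0 as well. Tyrobp, the signalling adaptor of many myeloid receptors, was the most abundant per kb, at 40.7, 33.6 and 38.8 CPM in the wild-type and 29.5, 47.7 and 34.6 CPM in the Maf1-/- mice. The Maf1-/- mice spread on either side of the wild-type range, with a log2 fold change of −0.02 (SE 0.22). Fcgr3, a low-affinity receptor for IgG, was at 87.2, 50.9 and 66.3 CPM against 48.8, 64.0 and 57.6 CPM, a log2 fold change of −0.26 (SE 0.24). Fcgr3 lies on chr1 next to the related receptor genes Fcgr2b and Fcgr4, and whether reads were shared between them was not tested. Fcer1g, the gamma chain that Fc receptors share, had a log2 fold change of 0.01 (SE 0.36), and the scarce high-affinity receptor Fcgr1 one of 0.03 (SE 0.61).

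C1qa, C1qb and C1qc, neighbouring genes on chr4 (mm9 136436044 to 136454718) that encode the 3 chains of complement C1q, were among the 6 most abundant of the 37 genes per kb. C1qa was at 213, 133 and 190.4 CPM in the wild-type mice and at 174, 277 and 176 CPM in the Maf1-/- mice. Maf1-/- mouse 2 was the highest and wild-type mouse 2 the lowest, and the log2 fold change was 0.22 (SE 0.28, 95% interval −0.45 to 0.90). Those of C1qb and C1qc were −0.06 (SE 0.25) and 0.02 (SE 0.24). The chains did not keep a fixed ratio: C1qa per C1qb was 1.22 to 1.44 in 5 of the mice and 1.90 in Maf1-/- mouse 2, whereas C1qc per C1qb was 0.850 and 0.899 in mouse 1 of each genotype and 1.15 to 1.18 in the others.

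The chemokine receptors mark monocyte-derived and patrolling cells. Ccr2, the receptor of Ccl2 on incoming monocytes, was at 68.9, 39.1 and 67.1 CPM in the wild-type and 45.8, 55.6 and 42.5 CPM in the Maf1-/- mice. All Maf1-/- mice lay inside the wild-type range, with a log2 fold change of −0.28 (SE 0.26). Cx3cr1, the fractalkine receptor, was at 4.09, 3.34 and 4.92 CPM against 4.71, 7.50 and 3.62 CPM, with a log2 fold change of 0.35 (SE 0.41) that was 0.02 without Maf1-/- mouse 2.

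Among the chemokines, Ccl6, a CC chemokine of myeloid cells, was at 314, 154 and 237 CPM in the wild-type mice and 187, 331 and 216 CPM in the Maf1-/- mice. The highest and the lowest mouse differed by about as much within each genotype, and the log2 fold change was 0.06 (SE 0.34, 95% interval −0.76 to 0.88). Ccl9, its neighbour on chr11, kept a nearly constant ratio to it, with 2.08 to 2.43 CPM of Ccl6 per CPM of Ccl9 in the 6 mice, and had a log2 fold change of 0.11 (SE 0.31). Ccl8, a monocyte chemokine, had the largest positive log2 fold change of the 32 tested macrophage and inflammation genes, at 10.5, 11.6 and 19.7 CPM in the wild-type and 15.5, 37.4 and 16.6 CPM in the Maf1-/- mice. Its log2 fold change of 0.73 (SE 0.43, unadjusted p = 0.137, adjusted p = 1.00 by edgeR) was 0.21 without Maf1-/- mouse 2, so that 1 library carried most of it.

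Cxcl1 and Ccl2, chemokines induced by inflammation, had lower means in the Maf1-/- mice but did not pass the test. Cxcl1, which attracts neutrophils, was at 4.09, 1.73 and 2.5 CPM in the wild-type mice and at 0.362, 2.14 and 1.85 CPM in the Maf1-/- mice. Maf1-/- mouse 1, with 4 reads, was far below the others, and the log2 fold change was −0.93 (SE 0.72), or −0.47 without that mouse, −0.083 without mouse 1 of both genotypes and −1.51 without mouse 2 of both. Ccl2, which attracts monocytes, was at 8.09, 4.48 and 6.40 CPM against 5.62, 2.28 and 3.77 CPM. Maf1-/- mouse 1 alone reached the wild-type range, and the log2 fold change was −0.69 (SE 0.45, unadjusted p = 0.170 by edgeR). Ccl2 kept that direction in every alternative run, from −1.05 to −0.43 with 1 library left out. Cxcl10, which interferon induces, had 16, 8 and 8 reads in the wild-type and 7, 3 and 12 in the Maf1-/- mice, and Ccl3 had 2 reads in each wild-type mouse and 0, 7 and 2 in the Maf1-/- mice. The genotypes overlapped in both genes, and the counts of Ccl3 lay mostly under the floor of 3 reads.

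Tnf, the cytokine tumour necrosis factor, was the only one of the 37 genes whose genotypes did not overlap. Its counts were 16, 9 and 12 reads in the wild-type mice and 2, 1 and 7 reads in the Maf1-/- mice, which correspond to 1.39, 0.537 and 0.937 CPM and to 0.181, 0.134 and 0.518 CPM. The highest Maf1-/- mouse, with 7 reads, was just below the lowest wild-type mouse, with 9 reads. The counts of Maf1-/- mice 1 and 2 lay under the floor of 3 reads. The mean was 0.955 ± 0.427 CPM (SD, n = 3) in the wild-type and 0.278 ± 0.209 CPM (SD, n = 3) in the Maf1-/- mice. An exact two-sided permutation test gave p = 0.1, the smallest that 3 against 3 mice allow. Over all 28529 genes of the table, 2.81% had every Maf1-/- mouse below every wild-type mouse, so 1 such gene in 37 is close to the background. When the filter was removed, Tnf had a log2 fold change of −1.70 with an unadjusted p = 0.106 and an adjusted p = 0.904 in the quasi-likelihood test of edgeR. The gene (mm9 chr17:35336326-35338952) is the one printed above with an ETS core and a TATA box.

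The other cytokines gave no such separation. Il6 had 11, 5 and 2 reads in the wild-type and 1, 0 and 3 in the Maf1-/- mice, with an exact permutation p = 0.2, and Maf1-/- mouse 3 overlapped the lowest wild-type mouse in CPM. Il1b, the pyrogen made by activated macrophages, was at 0.956, 0.597 and 1.25 CPM against 0.0906, 1.61 and 1.11 CPM, with a log2 fold change of −0.01 (SE 0.89) and an interval of −2.15 to 2.12. Maf1-/- mouse 1 with 1 read was again the low one, and Maf1-/- mouse 2 the high one. Il10, the anti-inflammatory cytokine, had 0, 8 and 2 reads against 4, 0 and 2, with an exact permutation p = 0.8, and those of Ccl3 and Cxcl10 were 0.9 and 0.7.

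**Figure D3:**
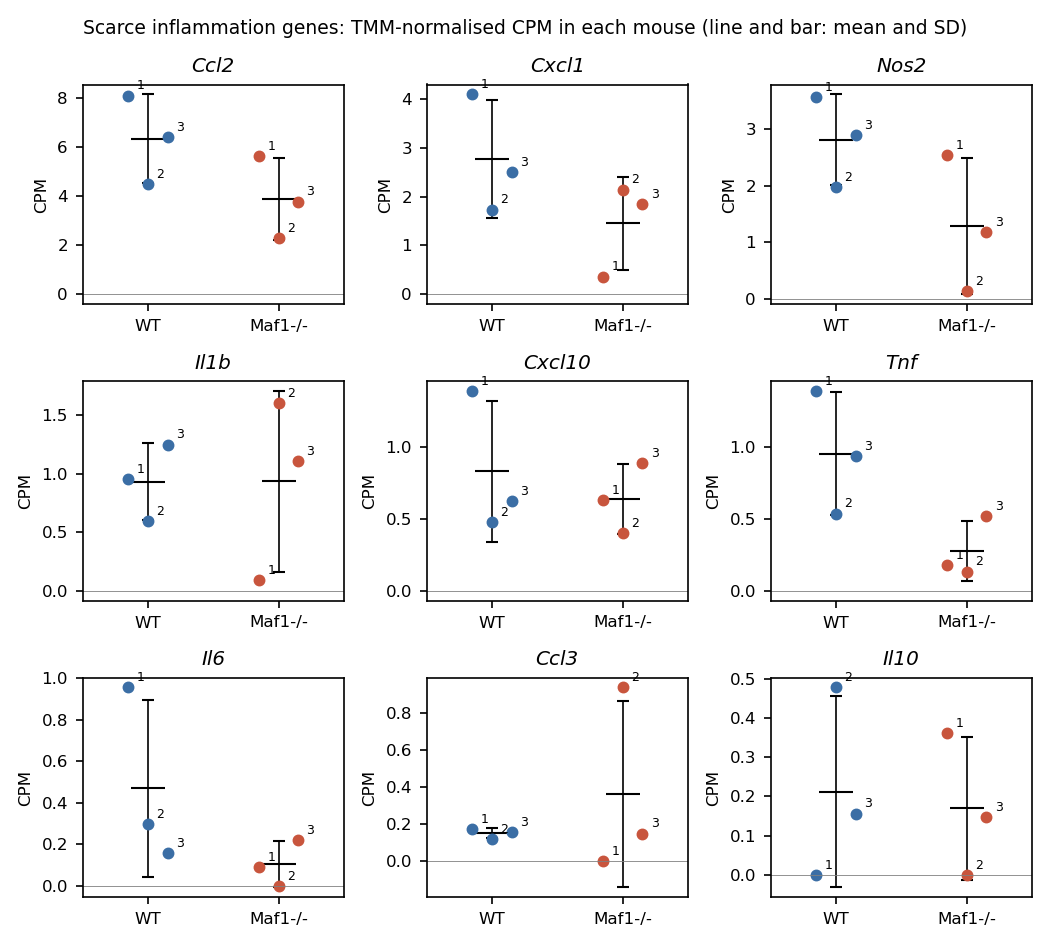
TMM-normalised CPM of 9 scarce genes in each mouse (points, numbered by mouse) with the mean and SD of 3 wild-type and 3 Maf1-/- mice. Tnf separates the genotypes by a small gap, and single mice set the spread of Ccl3, Il6, Il1b and Nos2.

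The genes that sense microbial products and act on them had no member past the test. Retnla, a secreted protein of alternatively activated macrophages, was at 396, 203 and 265 CPM in the wild-type and 299, 214 and 228 CPM in the Maf1-/- mice. All Maf1-/- mice lay inside the wild-type range, with a log2 fold change of −0.22 (SE 0.30). Nos2, the inducible nitric oxide synthase of classically activated macrophages, was at 3.56, 1.97 and 2.89 CPM in the wild-type and 2.54, 0.134 and 1.18 CPM in the Maf1-/- mice. Of the 32 tested genes it had the log2 fold change largest in size, −1.10 (SE 0.85, unadjusted p = 0.241 by edgeR). This ranged from −2.0 without Maf1-/- mouse 1 to −0.59 without Maf1-/- mouse 2, where a single read was counted. Tlr4, the receptor for bacterial lipopolysaccharide, had a log2 fold change of −0.09 (SE 0.30), its co-receptor Cd14 of 0.12 (SE 0.33), and Nfkbia, the NF-kB inhibitor that NF-kB itself induces, of 0.21 (SE 0.28).

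Macrophage markers were then set beside the cytokines and chemokines, and in the main fit neither class stood away from all genes in its median. The median log2 fold change was −0.01 over the 21 markers, 0.02 over the 6 tested cytokines and chemokines and −0.09 over the 5 sensing and effector genes, beside 0.01 over all genes tested. The difference of the medians, markers minus cytokines and chemokines, was −0.03. The median of the 6 rests on few genes and moved most. It was −0.44 without wild-type mouse 2 and −0.32 without Maf1-/- mouse 2. The marker median stayed between −0.15 and 0.08 when any 1 library was left out. Without the filter, which adds the 5 scarce genes, the cytokine and chemokine median was −0.30, and with voom −0.24. In these 2 runs the marker median was −0.04 and −0.03, and that of all genes −0.01 in both. Per 100 CPM of summed markers, the summed cytokines and chemokines stood at 19.0, 14.9 and 16.2 CPM in the wild-type and 15.02, 23.0 and 17.6 CPM in the Maf1-/- mice, overlapping throughout. Nearly all of that sum was Ccl6, Ccl8 and Ccl9. Without these 3, a split made after their levels were seen, the 8 scarce genes together held 196, 146 and 156 reads in the wild-type and 81, 56 and 117 reads in the Maf1-/- mice. In CPM their sum was 17.0, 8.72 and 12.2 in the wild-type and 7.34, 7.50 and 8.66 in the Maf1-/- mice. The highest Maf1-/- mouse thus lay just below the lowest wild-type mouse. Per 100 CPM of markers the sum was 0.677, 0.525 and 0.538 CPM against 0.372, 0.329 and 0.448 CPM, with no overlap. Among single genes of the whole table, 2.81% had every Maf1-/- mouse lower. Most of the reads of the 8 genes came from Ccl2 and Cxcl1. Their sum was not tested, since the split followed the data.

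Many of these genes were high or low together in a library, within each genotype. Wild-type mouse 2 was the lowest of the 6 mice in 13 of the 21 markers and in 18 of the 32 tested genes, while wild-type mouse 1 was the highest in 15 and Maf1-/- mouse 2 in 12 of the 32. Without mouse 2 of both genotypes the marker median was −0.28, and without mouse 1 of both it was 0.21. Between mice of the same number, Emr1, Csf1r, Aif1, Ccl2 and Nos2 were lower in the Maf1-/- mouse in each of the 3 pairs, 5 of the 32 beside 13.2% of all genes tested, and Marco was higher in each, 1 of the 32 beside 13.6%. The untested Tnf was also lower in each pair. The labels do not say that mice of the same number belong together, and the libraries did not tell mice 2 and 3 apart. With the replicate number as a block none of the 6 tested genes passed, at unadjusted p from 0.0582 for Aif1 to 0.342 for Csf1r by edgeR. Maf1-/- mouse 2 also read long genes less than short ones. Over the 16071 tested genes with a known exonic length, the Spearman correlation of its deviation from the gene mean with length was −0.30, against 0.01 to 0.17 in the other mice. Over the 32 genes described here it was −0.29, against −0.12 in wild-type mouse 1 to 0.28 in wild-type mouse 3 among the other mice. These correlations run across genes of a single library, and genes are not independent replicates. With a correction for length in the fit, added after the data were seen, 16 of 21 markers had a log2 fold change below 0 in place of 11, the marker median was −0.08, and C1qa turned from 0.22 to −0.01. None of them passed under that correction.

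**Figure D4:**
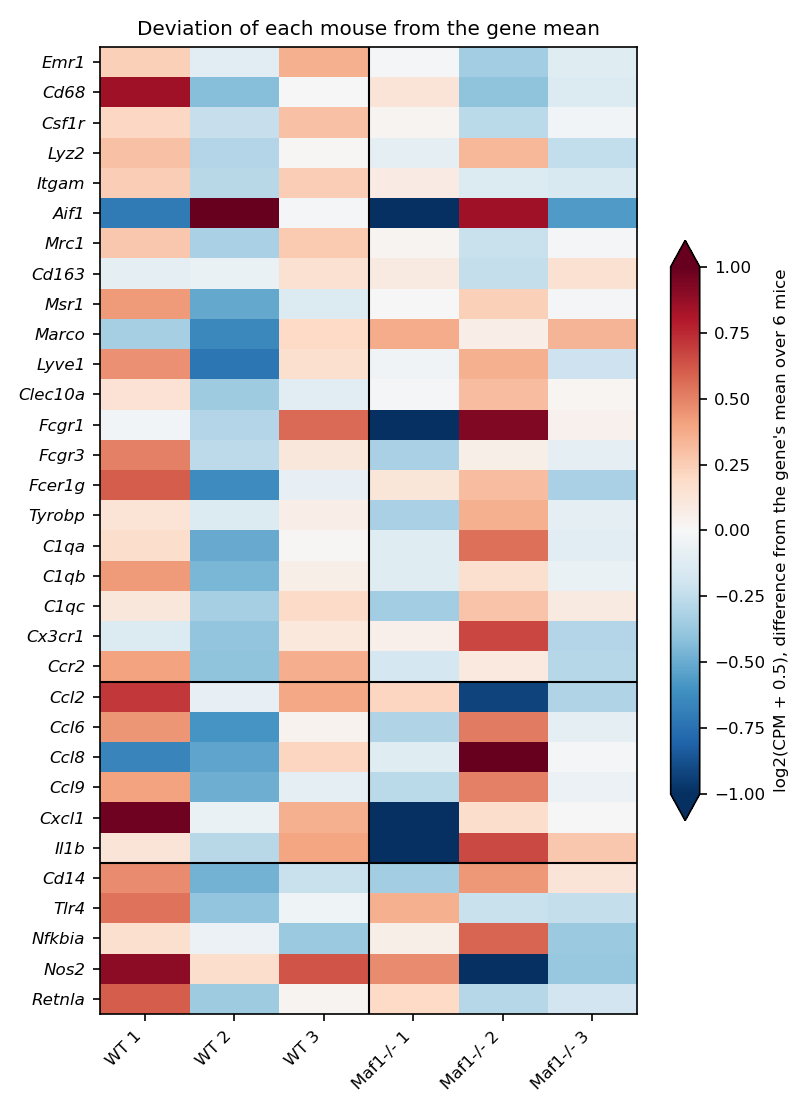
Deviation of each mouse from the mean of a gene over the 6 mice, as log2(CPM + 0.5), for the 32 tested genes in the order of the text, with lines between genotypes and classes. The column of wild-type mouse 2 is low for most genes except Aif1, and Maf1-/- mouse 2 is high for the C1q genes, Ccl6, Ccl8 and Ccl9 but low for Ccl2 and Nos2.

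Other genes of the same pathways, read from lists of pathway members, also gave 0 calls at an adjusted p of 0.05 by edgeR. Over all genes tested, 1.88% had an unadjusted p under 0.05. The genotypes did not overlap in 3.37% with every Maf1-/- mouse lower and in 2.9% with every Maf1-/- mouse higher. Each pathway list held at most 1 gene of each of these kinds. Of 23 further macrophage genes 7 were above and 16 below 0, with a median log2 fold change of −0.21. The integrin chain Itgb2, the partner of Itgam, had an unadjusted p under 0.05 there, at 61.2, 47.1 and 64.6 CPM against 39.8, 34.8 and 47.7 CPM (log2 fold change −0.50, SE 0.20, unadjusted p = 0.0433). Of 16 further chemokines 10 were above and 6 below 0, and Ccl5, which T cells and macrophages make, was at 2.09, 1.55 and 1.33 CPM in the wild-type and 3.17, 7.50 and 2.51 CPM in the Maf1-/- mice (log2 fold change 1.40, SE 0.55, unadjusted p = 0.0404). The genotypes of Ccl5 did not overlap, opposite in direction to Tnf. The T cell gene Cd8a stood likewise, at 0, 0.358 and 0.547 CPM against 1.45, 2.95 and 1.18 CPM, and the summed level of 10 T and NK cell genes was 10.7, 10.7 and 10.5 CPM in the wild-type and 9.78, 27.3 and 17.0 CPM in the Maf1-/- mice. The part of T and NK cells in the Ccl5 values was not tested. Of 8 T and NK cell genes tested, 1 had every Maf1-/- mouse above every wild-type mouse. The lists of B and plasma cells, mast cells and dendritic cells also held 1 such gene each, of 7, 6 and 6 tested. Of 9 further cytokines 3 were above and 6 below 0, and of 30 Toll-like receptor and NF-kB genes 9 were above and 21 below, with medians of −0.24 and −0.17 and no unadjusted p under 0.05 in either. In 1 of these 30, Tlr6, a receptor for bacterial lipopeptides named here after its values were seen, every Maf1-/- mouse was below every wild-type mouse, at 3.83, 1.85 and 3.20 CPM against 1.27, 1.47 and 1.70 CPM (log2 fold change −0.99, SE 0.46, unadjusted p = 0.0719 by edgeR). The 16 interferon response genes had a median of −0.06, with 7 above and 9 below 0. Of 7 alternative activation genes 1 was above and 6 below 0, and among them Cd209a, a lectin of dendritic cells and macrophages, was at 14.7, 9.67 and 12.8 CPM in the wild-type and 5.80, 4.69 and 7.18 CPM in the Maf1-/- mice. Its genotypes did not overlap, with a log2 fold change of −1.07 (SE 0.30, unadjusted p = 0.0099, adjusted p = 1.00 by edgeR).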

How the data were processed

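Fat pad RNA of 6 mice, 3 per genotype, was depleted of ribosomal RNA and sequenced as 1 directional library per mouse. The deposited values used here are read counts per gene, handled like expected count values although each is a whole number. Per the submitters' notes, the authors aligned reads to mm9 with GSNAP and counted unique alignments with HTSeq. Whether strand was used in the counting was not stated in what was read here. The 2 lines that name no gene and the 6 columns of normalised counts were not used, nor were the deposited fold changes, p-values and FDR from the authors' edgeR comparison.

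Counts of all genes were filtered with filterByExpr, scaled by TMM and tested on genotype in the edgeR 4.0.16 quasi-likelihood framework (R 4.3.3), with Benjamini-Hochberg adjustment over the 16101 genes tested and a threshold of 0.05. Alternatives used limma 3.58.1 (voom), DESeq2 1.42.0, the edgeR exact test, other scalings and filters, a replicate block and leaving out libraries. The replicate numbers were checked by the correlation of deviations from the genotype means. It was 0.66, 0.36 and 0.34 for mice of the same number, all above 0.1. Wild-type mouse 2 correlated more with Maf1-/- mouse 3 (0.47), and wild-type mouse 3 reached 0.29 with Maf1-/- mouse 2. Mouse 1 of either genotype stood at −0.59 to −0.41 with mice 2 and 3 of the other. Deviations of the 3 mice of a genotype sum to 0, so these correlations depend on one another. The values of 0.36 and 0.34 are thus not separate evidence for pairing by number. The rule set mouse 1 apart but did not tell mice 2 and 3 apart. It rests on the data and not on the labels. Means carry the SD of 3 mice; log2 fold changes carry the standard error and 95% interval of the fit. Levels per kb use the exonic length in mm9. Totals of 7207476 to 15971900 counts set the precision, and the floor of 3 counts covers counting error only. Promoter sequences are from RefSeq.

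The members and lists were chosen with earlier results of these data known. Values in every library are given for a gene that is called, has an unadjusted p under 0.05, has genotypes that do not overlap, is the most abundant per kb or has the largest log2 fold change of its role, or is too low to test. Library values of Emr1, Cd163, Ccl2, Ccl8, Lyz1 and Cd8a were added after they were seen.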

Additional observations from a re-analysis of the deposited data

How the results depend on the processing

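No alternative called any of the 37 genes. The genes Ccl2, Ccl8, Ccr2, Csf1r, Cxcl1, Emr1, Itgam, Marco, Mrc1 and Nos2 kept their sign in every alternative run, while the other 22 tested genes changed sign in some. Over all genes DESeq2 called 14 and the exact test 4 in place of 0, and the count remained 0 with each library left out. Maf1 passed in DESeq2 (log2 fold change −1.99, adjusted p = 1.33e-05) and in the exact test (−2.0, adjusted p = 0.000466). The replicate block turned Fcgr1 to −0.20 and changed no call.

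The median over cytokines and chemokines was −0.30 without the filter, which adds the 5 scarce genes, and −0.24 with voom. With libraries left out it ran from −0.52 to 0.51, and the marker median ran from −0.28 to 0.21. Log2 fold changes near 0 changed sign as follows. Lyz2 was 0.0028 with RLE size factors, 0.0027 with DESeq2, 0.00055 with voom and 0.041 when scaled to the summed markers. That scaling, added after the data were seen, gave 0.0066 for Tyrobp, 0.020 for C1qb and 0.028 for Il1b. Il1b was 0.0054 with DESeq2 and 0.013 with scaling by library size alone, which gave −0.023 for Cd163 and −0.0022 for Fcer1g. Voom gave −0.0046 for Cd163 and −0.27 for Fcgr1. Without the filter Cd163 was −0.017, Lyve1 −0.022, Fcgr1 −0.0079, Fcer1g −0.024 and C1qc −0.0080. With the length correction, added after the data were seen, Lyve1 was −0.025, Fcgr1 −0.0090, Fcer1g −0.25, C1qa −0.013, C1qc −0.057, Ccl6 −0.053 and Cd14 −0.012. The causes of these sign changes were not tested.

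With 1 library left out, or both libraries of mouse 1 or of mouse 2, log2 fold changes ran for Cd68 from −0.61 to 0.080, for Lyz2 from −0.31 to 0.21, for Aif1 from −1.73 to 0.28, for Cd163 from −0.076 to 0.12, for Msr1 from −0.17 to 0.44, for Lyve1 from −0.42 to 0.32, for Clec10a from −0.0030 to 0.40, for Fcgr1 from −0.78 to 0.44. In the same fits they ran for Fcgr3 from −0.50 to 0.053, for Fcer1g from −0.38 to 0.40, for Tyrobp from −0.28 to 0.18, for C1qa from −0.19 to 0.48, for C1qb from −0.32 to 0.23, for C1qc from −0.24 to 0.24, for Cx3cr1 from −0.10 to 0.56. The remaining ranges were for Ccl6 from −0.43 to 0.49, for Ccl9 from −0.31 to 0.53, for Il1b from −0.80 to 0.55, for Cd14 from −0.23 to 0.64, for Tlr4 from −0.32 to 0.20, for Nfkbia from −0.068 to 0.41, for Retnla from −0.42 to 0.076. Among the genes that kept their sign, Cxcl1 ran from −1.51 to −0.083, Nos2 from −2.0 to −0.59, Ccl2 from −1.05 to −0.43, Ccl8 from 0.11 to 1.08 and Ccr2 from −0.60 to −0.11.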
